A study of Mus musculus with 8 samples.

Results

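The genes described here encode proteins that bind pre-mRNA and carry out or steer its splicing in group 2 innate lymphoid cells (ILC2s) of visceral fat. They were chosen by name from the protein-coding genes of the table: all Srsf, Hnrnp, Sf3a, Sf3b, U2af and Prpf genes, with Isy1, Tra2a and Tra2b. The rule took 59 of 39527 genes, namely 11 Srsf, 20 Hnrnp, 9 Sf3a or Sf3b, 3 U2af and 13 Prpf genes and the 3 named singly. A second gene deposited under the symbol U2af1l4 matched the rule but held only values below 0, so it was left out. The high-fat group was ILC2s sorted from epididymal fat, a visceral adipose tissue, of wild-type male C57BL/6 mice kept on high-fat food for 8 weeks from 6 weeks of age (libraries H1 to H4). The comparison group was the same cells from wild-type male C57BL/6 mice of the same age, 14 weeks, on a normal diet (libraries N1 to N4). The labels do not say whether each library came from 1 animal or a pool, so a p-value here reflects library-to-library spread that may be technical only.

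SR proteins (Srsf genes) carry RNA recognition motifs and a tail rich in arginine and serine, and they bind enhancers in exons and help the spliceosome to use nearby splice sites. Heterogeneous nuclear ribonucleoproteins (hnRNPs) coat nascent transcripts and often keep splice sites from being used, while U2AF and the SF3A and SF3B complexes recognise the 3′ splice site and the branch site. The Prpf proteins build and remodel the spliceosome itself. In lymphocytes, activation changes the balance of these factors, and hnRNPLL is known for its part in switching CD45 isoforms.

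Full-length cDNA was sequenced, and the deposited levels are FPKM by the column names, a read density per kilobase of gene. Whole reads recovered from these values came to 9005363 to 15752815 per library, with H2 the lowest. The recovery took only whole-number lengths, so a gene whose length is not a whole number can come out with too many reads. For Hnrnpa2b1, Hnrnpk, Hnrnpc, Hnrnpdl, Srsf4 and Prpf40b all 8 counts were even, so these totals may be too high. The deposited values are not in proportion to these totals: the divisor they imply was 0.863 to 1.023 of the recovered reads in H1 to H4, against 0.742 to 0.881 in N1 to N4. The libraries held the expected cell's markers, with 16 of 16 ILC2 markers at 1 FPKM or more in all 8 libraries. Their summed level was 8108 to 9564 FPKM in high-fat libraries and 10425 to 13168 FPKM in normal-diet libraries, and 4 of them, Gata3, Il2ra, Il5 and Hs3st1, passed the test between the diets. Markers of other cells were present too, none at 0 in every library. The summed T cell list (9 of 11 at 1 FPKM or more throughout) stood at 833 to 1611 FPKM in high-fat libraries, against 782 to 1046 FPKM in normal-diet libraries. Its highest genes were Trbc1, Trbc2, Trac and Cd3g, at 70.4 to 740 FPKM over the 8 libraries. Cd3d, Cd3e, Cd4, Cd5 and Cd28 held 1.17 to 29.6 FPKM, and Cd8a and Cd8b1 were below the filter. Whether these reads came from T cells was not tested. The mast cell list (6 of 6) stood at 1699.6 to 7788 FPKM in high-fat libraries, against 3715 to 7925 FPKM in normal-diet libraries. The endothelial list (1 of 8) stood at 29.6 to 154 FPKM in high-fat libraries, against 16.8 to 22.4 FPKM in normal-diet libraries, and 2 of its genes, Esam and Fabp4, passed the test. Fabp4 had the widest gap, at 9.68 to 104 FPKM in high-fat libraries, against 0.788 to 1.81 FPKM in normal-diet libraries. Pecam1 overlapped between the diets, at 10.6 to 25.1 FPKM in high-fat libraries, against 11.3 to 16.1 FPKM in normal-diet libraries. The macrophage and monocyte list (2 of 9) stood at 11.98 to 12.96 FPKM in high-fat libraries, against 8.27 to 9.76 FPKM in normal-diet libraries, without overlap and with none called. Its genes did not all go that way: Adgre1, below the filter, held 0.0952 to 0.797 FPKM in high-fat libraries, against 0.984 to 1.80 FPKM in normal-diet libraries. The erythroid list (1 of 5) stood at 46.5 to 377 FPKM in high-fat libraries, against 132 to 4484 FPKM in normal-diet libraries. The part of these other cells in the results was not tested, and in such bulk samples fewer cells of a type and less RNA per cell cannot be told apart.

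The splicing factors were among the more abundant transcripts of these cells. Of the 59 genes, 57 reached 1 FPKM or more in at least 4 libraries and were tested, and these 57 were at 1 FPKM or more in all 8. Their median level was 37.6 FPKM, against 9.57 FPKM over all 11483 tested genes, and 36 of the 57 lay in the top 25% of tested genes. A few genes made up most of the total: the most abundant, Srsf5, held 17.8% of the summed level of the 59 genes, the top 4 held 48.2% and the top 10 held 71.6%. Srsf5 averaged 1329 FPKM over the 8 libraries, followed by Hnrnpa2b1 at 799, Hnrnpk at 766, Srsf3 at 706 and Srsf7 at 539 FPKM. Neighbours in this order such as Hnrnpa2b1 and Hnrnpk had overlapping ranges (603 to 1043 FPKM and 603 to 950.1 FPKM). The 2 genes below the filter were Srsf12, an SR protein of restricted expression, at 0.277 to 0.672 FPKM in high-fat libraries, against 0.431 to 1.59 FPKM in normal-diet libraries, and U2af1l4, a relative of U2af1, at 0.1002 to 0.357 FPKM in high-fat libraries, against 0 to 0.834 FPKM in normal-diet libraries. Levels between genes are per length as the authors' values imply it. That implied length was a median 0.435 of the annotated exonic length of a member, and it may be too long for the genes with only even counts.

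**Figure D1:**
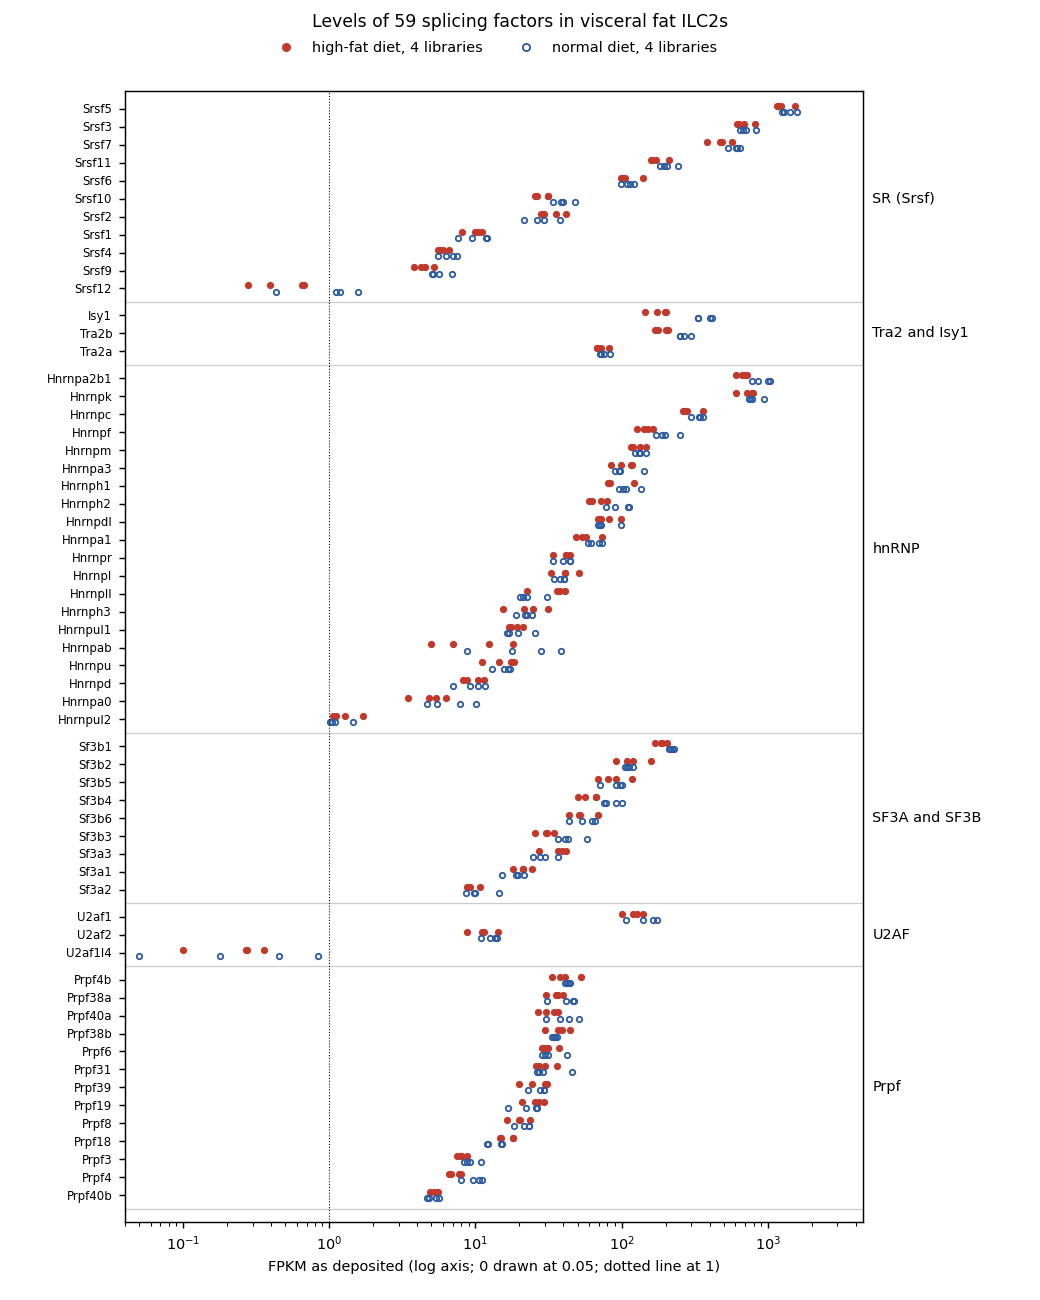
FPKM of the 59 splicing factors by family, on a log axis, with a point per library for the high-fat diet (filled, above) and the normal diet (open, below); the dotted line marks 1 FPKM and a value of 0 is drawn at 0.05. Srsf5 stands highest, and Srsf12 and U2af1l4, which missed the filter on low values, stand lowest.

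Between the diets, 1 of the 57 tested splicing factors passed the test at an adjusted p of 0.05 (limma, Benjamini-Hochberg over all 11483 tested genes). It was Isy1, lower on the high-fat diet, and no member was called higher. Isy1 is among the genes named singly, and the members were chosen with earlier results of these data known. No gene taken by a family name (Srsf, Hnrnp, Sf3a, Sf3b, U2af or Prpf) was called. The count below therefore depends on that choice and is no test of the list. Over all tested genes 1.88% were called lower and 0.975% higher, or 2.86% in either direction, so a count of 1 in 57 (1.75%) was near the background. The split by direction depends on the scaling: over all tested genes 226 were called higher and 204 lower after quantile normalization, with no member higher, and 1117 higher and 388 lower with recovered reads scaled to read totals, with 3 members higher and 4 lower. At an unadjusted p under 0.05 the count was 10 members lower, against 11.0% of all tested genes, and 1 member higher, against 7.18%; in either direction it was 18.1% of all tested genes. Larger differences, without regard to the test, were below -0.4 in 9 members, against 11.1% of all tested genes, and above 0.4 in 1, against 9.71%. The median log2 difference of the members was -0.08, against -0.02 over all tested genes, and 43 of 57 lay below 0, against 52.1% of all tested genes. The members' median was -0.0022 after quantile normalization and turned to 0.057 with recovered reads scaled to read totals, where the median of all tested genes was 0.14. The differences ran from -1.05 to 0.51, and a typical member's 95% interval reached 0.34 to either side (median). All log2 differences are high-fat minus normal diet on the log2(FPKM + 1) scale and carry the standard error of the fit.

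**Figure D2:**
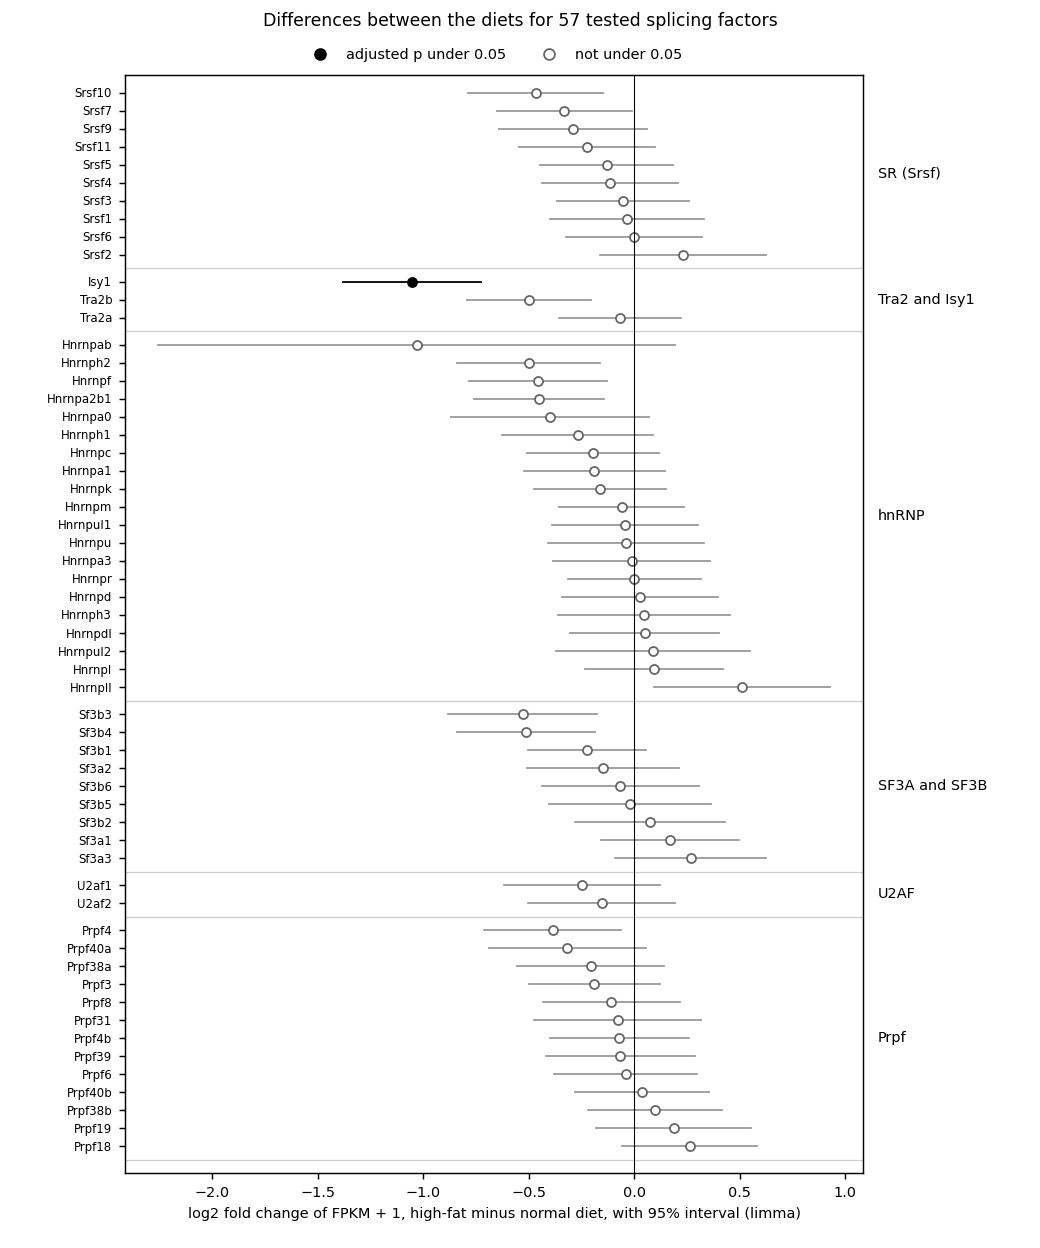
Log2 difference, high-fat minus normal diet, of each of the 57 tested members with its 95% interval, grouped by family; the filled point passed the test and the open points did not. Isy1 at -1.05 is the one member past the adjusted p of 0.05, and 43 of the 57 points lie below 0.

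Isy1 belongs to the complex built around Prpf19 that joins the spliceosome at its catalytic activation, and it was first described in yeast. The gene (ENSMUSG00000030056) lies on the minus strand of chromosome 6 at chr6:87814269-87838798 in mm10. It held 175, 200.3, 145 and 198 FPKM in H1 to H4, against 403, 416, 336 and 334 FPKM in N1 to N4. All 4 high-fat libraries lay below all 4 normal-diet libraries. The means were 179 ± 25.6 FPKM in high-fat libraries and 372 ± 43.4 FPKM in normal-diet libraries (SD, n = 4 each), a log2 difference of -1.05 ± 0.15 (95% interval -1.38 to -0.73, adjusted p = 0.00296). The levels rest on 2194 to 5458 recovered reads per library. Isy1 kept its call in all 20 alternative settings, with adjusted p from 2.65e-05 to 0.0190 and log2 differences of -1.11 to -0.89.

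Isy1 stands in a run of genes on the same strand, and some of them share its bases. Inside its span lies B130021K23Rik, an unclassified transcript, to which 506 to 724 reads were assigned in high-fat libraries and 693 to 1030 in normal-diet libraries. Gm45140, a coding transcript that runs from Rab43 into Isy1, was assigned 6 to 19 reads in high-fat libraries and 9 to 23 in normal-diet libraries. Both were deposited with values below 0, so neither has a usable level, and their reads cannot be told apart from those of Isy1 where the exons coincide. The next gene upstream is Cnbp, which encodes a zinc-finger nucleic acid-binding protein. It averaged 1352 ± 83.4 FPKM in high-fat libraries and 1903 ± 234 FPKM in normal-diet libraries, a log2 difference of -0.49 ± 0.14 that was not called (adjusted p = 0.0738). Rab43, a small GTPase gene on the other side, averaged 3.49 ± 0.666 FPKM in high-fat libraries and 4.46 ± 0.951 FPKM in normal-diet libraries, a difference of -0.28 ± 0.19 (adjusted p = 0.472).

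The promoter of Isy1 is shown with those of Tra2b, the next most different of the 3 genes named singly, and Srsf5, the most abundant member. The sequences are the RefSeq windows of GRCm38.p6 from 250 bases before to 50 bases after the first transcript start listed, 5′ to 3′ on the gene's strand, with each ETS core (CCGGAA on either strand) in capitals. They lie at chr6:87838710-87839009 (minus strand), chr16:22265956-22266255 (minus strand) and chr12:80945249-80945548 (plus strand).
Isy1: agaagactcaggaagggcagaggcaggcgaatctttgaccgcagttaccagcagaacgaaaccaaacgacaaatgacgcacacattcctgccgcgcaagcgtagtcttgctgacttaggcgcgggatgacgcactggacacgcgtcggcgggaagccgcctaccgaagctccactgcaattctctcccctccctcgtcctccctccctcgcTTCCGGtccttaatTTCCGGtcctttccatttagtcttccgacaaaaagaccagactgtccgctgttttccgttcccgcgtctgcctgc
Tra2b: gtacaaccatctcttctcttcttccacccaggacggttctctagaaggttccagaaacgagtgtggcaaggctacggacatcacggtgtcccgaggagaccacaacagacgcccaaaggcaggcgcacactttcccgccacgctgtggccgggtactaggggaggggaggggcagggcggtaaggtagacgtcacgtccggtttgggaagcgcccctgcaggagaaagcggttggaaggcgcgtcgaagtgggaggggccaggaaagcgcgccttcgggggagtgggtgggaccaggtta
Srsf5: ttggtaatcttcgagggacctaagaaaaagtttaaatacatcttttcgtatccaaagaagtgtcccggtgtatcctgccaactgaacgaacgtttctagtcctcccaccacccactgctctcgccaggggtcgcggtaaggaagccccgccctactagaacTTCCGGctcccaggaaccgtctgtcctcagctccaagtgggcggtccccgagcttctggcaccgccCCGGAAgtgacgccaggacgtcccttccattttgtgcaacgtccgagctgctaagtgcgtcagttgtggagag

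The Isy1 and Srsf5 windows each held 2 ETS cores, and the Tra2b window held none. A RefSeq promoter was found for 50 of the 57 tested members, by gene symbol. The ETS core stood in 50% of these, against 30.4% of 8116 tested coding genes and 15.2% of all 27025 promoters of the same length. CCAAT stood in 52% of the members' windows, against 38.9% of the tested coding genes. The other 5 motifs searched, on both strands, were the GC box GGGCGG (70% against 65.5%), the E-box CACGTG (14% against 10.6%), the TATA box TATAAA (10% against 6.76%), the NRF1 motif (16% against 11.5%) and the CRE TGACGTCA (2% against 3.57%). No motif searched contains another, and a match describes the letters only.

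Among the Srsf genes, Tra2a and Tra2b, none was called, and the largest difference was that of Tra2b. Tra2b, which binds GAA-rich exonic enhancers, held 178, 169, 207 and 201 FPKM in H1 to H4, against 249, 299, 252 and 267 FPKM in N1 to N4. All 4 high-fat libraries lay below all 4 normal-diet libraries, but the log2 difference of -0.50 ± 0.14 missed the threshold (adjusted p = 0.06698). Its paralog Tra2a did not separate the diets, at 81.5, 67.8, 67.9 and 72.6 FPKM in H1 to H4, against 72.6, 71.8, 83.9 and 75.4 FPKM in N1 to N4, with a difference of -0.067 ± 0.14 (adjusted p = 0.849).

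Srsf5, the most abundant, held 1533, 1172, 1225 and 1150.4 FPKM in H1 to H4, against 1289, 1429, 1584 and 1249 FPKM in N1 to N4. The diets overlapped, and the difference of -0.13 ± 0.15 was within the spread (95% interval -0.45 to 0.18, adjusted p = 0.703). Srsf3, the smallest SR protein and a link to mRNA export, stood at 619 to 818 FPKM in high-fat libraries, against 651 to 838 FPKM in normal-diet libraries, a difference of -0.055 ± 0.15 (adjusted p = 0.8901). Srsf7, its closest relative in sequence, held 475, 384, 489.9 and 566 FPKM in H1 to H4, against 612, 602, 648 and 532 FPKM in N1 to N4. H4 lay within the normal-diet range, and the difference was -0.33 ± 0.15 (adjusted p = 0.258).

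Srsf1, the founding SR protein, stood at 8.04 to 11.1 FPKM in high-fat libraries, against 7.64 to 12.1 FPKM in normal-diet libraries, a difference of -0.037 ± 0.17 (adjusted p = 0.942). Srsf6 stood at 98.6 to 139.9 FPKM in high-fat libraries, against 99.3 to 122 FPKM in normal-diet libraries, a difference of -0.0029 ± 0.15 (adjusted p = 0.995). Both intervals, -0.40 to 0.33 for Srsf1 and -0.32 to 0.32 for Srsf6, span 0. Srsf2, which is one of the splicing factors recurrently mutated in myeloid disease, was the one tested Srsf gene with a difference above 0, at 0.23 ± 0.18 (adjusted p = 0.557). It stood at 28.2 to 41.9 FPKM in high-fat libraries, against 21.7 to 37.9 FPKM in normal-diet libraries, and the diets overlapped. Srsf10, which represses splicing when dephosphorylated, was picked out after its values were seen: it held 31.5, 31.3, 25.5 and 26.5 FPKM in H1 to H4, against 39.96, 48.2, 38.6 and 34.2 FPKM in N1 to N4, without overlap, and a difference of -0.47 ± 0.15 (adjusted p = 0.111).

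Of the 20 hnRNP genes, all were tested and none was called. The most abundant, Hnrnpa2b1, encodes the A2 and B1 proteins, which bind RNA with UAGG motifs and N6-methyladenosine, and it held 702, 603, 668 and 718 FPKM in H1 to H4, against 780.4, 1043, 862 and 1012 FPKM in N1 to N4. The diets did not overlap, with a difference of -0.45 ± 0.14 (adjusted p = 0.1095). Hnrnpa1, the relative best known for silencing exons, held 73.4, 48.6, 56.8 and 53.9 FPKM in H1 to H4, against 73.3, 70.2, 59.02 and 61.6 FPKM in N1 to N4, a difference of -0.19 ± 0.16 (adjusted p = 0.569). Hnrnpa1 has processed pseudogenes with near-identical sequence, so its reads may be split in ways the values do not show.

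Hnrnpk, a binder of C-rich RNA, stood at 603 to 789 FPKM in high-fat libraries, against 748 to 950.1 FPKM in normal-diet libraries, a difference of -0.16 ± 0.15 (adjusted p = 0.611). Hnrnpc, which binds runs of uridine, stood at 265 to 362 FPKM in high-fat libraries, against 299 to 360.3 FPKM in normal-diet libraries, a difference of -0.19 ± 0.15 (adjusted p = 0.528). Hnrnpu, a scaffold of nuclear RNA and chromatin, stood at 11.1 to 18.5 FPKM in high-fat libraries, against 12.97 to 17.3 FPKM in normal-diet libraries, a difference of -0.040 ± 0.17 (adjusted p = 0.938). The diets overlapped for these 3 genes. Hnrnph2, a binder of G runs, had high-fat values of 59.7 to 79.3 FPKM, against 78.7 to 112 FPKM in normal-diet libraries, a difference of -0.50 ± 0.16 (adjusted p = 0.107). Its relative Hnrnpf, picked out after its values were seen, held 165, 127, 143 and 151 FPKM in H1 to H4, against 173, 250.5, 189.6 and 199 FPKM in N1 to N4, without overlap, and a difference of -0.46 ± 0.15 (adjusted p = 0.122).

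The largest positive difference of any member was that of Hnrnpll, the regulator of CD45 splicing in lymphocytes. Hnrnpll held 41.2, 22.6, 36.2 and 37.8 FPKM in H1 to H4, against 30.7, 20.3, 22.5 and 21.03 FPKM in N1 to N4. H1, H3 and H4 lay above every normal-diet library, while H2 lay inside the normal-diet range. The difference of 0.51 ± 0.19 had an unadjusted p of 0.0201 and an adjusted p of 0.179, and it was called higher only when H2, or replicate 2 of both diets, was left out, or when recovered reads were scaled to read totals. Hnrnpl, its paralog, stood at 32.7 to 50.8 FPKM in high-fat libraries, against 34.7 to 40.5 FPKM in normal-diet libraries (0.093 ± 0.15, adjusted p = 0.813). Hnrnpab had the second-lowest log2 difference, -1.03, but also the widest standard error, 0.52 (adjusted p = 0.358), and it held 12.5, 17.99, 4.95 and 6.999 FPKM in H1 to H4, against 27.96, 17.9, 38.7 and 8.76 FPKM in N1 to N4. Its values varied several-fold within each diet, and the diets overlapped.

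SF3A and SF3B form the U2 small nuclear ribonucleoprotein's grip on the branch site, and none of their 9 genes was called. Sf3b1, the subunit that cradles the branch helix, held 204, 168, 191 and 185 FPKM in H1 to H4, against 213, 228, 222 and 211 FPKM in N1 to N4. The diets did not overlap, but the difference was -0.23 ± 0.13 (adjusted p = 0.391). Sf3b4 held 67.3, 50.7, 56.4 and 67.3 FPKM in H1 to H4, against 91.7, 101, 77.98 and 76.4 FPKM in N1 to N4, also without overlap, with a difference of -0.51 ± 0.15 (adjusted p = 0.08597). Sf3b3, a scaffold subunit, held 31.1, 25.6, 30.3 and 34.7 FPKM in H1 to H4, against 43.04, 58.3, 41.4 and 36.6 FPKM in N1 to N4, likewise without overlap, with a difference of -0.53 ± 0.16 (adjusted p = 0.101). Sf3b2 overlapped between the diets (0.076 ± 0.17, adjusted p = 0.862).

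Of the SF3A subunits, Sf3a3 and Sf3a1 had differences above 0 that did not pass the test. Sf3a3 stood at 27.3 to 41.4 FPKM in high-fat libraries, against 24.9 to 36.6 FPKM in normal-diet libraries, a difference of 0.27 ± 0.17 (adjusted p = 0.436). Sf3a1 stood at 18.2 to 24.5 FPKM in high-fat libraries, against 15.3 to 21.5 FPKM in normal-diet libraries, a difference of 0.17 ± 0.15 (adjusted p = 0.609). Neither separated the diets, and both were called higher with recovered reads scaled to read totals, at 0.44 for Sf3a3 (adjusted p = 0.0211) and 0.38 for Sf3a1 (adjusted p = 0.0251). U2af1, which reads the AG at the 3′ splice site, held 141, 99.99, 119 and 129 FPKM in H1 to H4, against 174, 163, 108 and 141 FPKM in N1 to N4, a difference of -0.25 ± 0.17 (adjusted p = 0.487). U2af2, which binds the pyrimidine tract, stood at 8.81 to 14.4 FPKM in high-fat libraries, against 10.9 to 13.99 FPKM in normal-diet libraries, a difference of -0.15 ± 0.16 (adjusted p = 0.676). The diets overlapped for both U2AF subunits.

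The 13 Prpf genes, all tested and none called, had a median level of 26.9 FPKM. The most abundant were Prpf38a, a protein of the pre-catalytic spliceosome, at 30.5 to 39.7 FPKM in high-fat libraries, against 31.04 to 47.4 FPKM in normal-diet libraries (-0.21 ± 0.16, adjusted p = 0.545), and Prpf4b, a kinase that phosphorylates spliceosomal proteins, at 33.4 to 52.95 FPKM in high-fat libraries, against 41.02 to 44.6 FPKM in normal-diet libraries (-0.071 ± 0.15, adjusted p = 0.861). Prpf8, the protein at the heart of the catalytic core, stood at 16.6 to 23.6 FPKM in high-fat libraries, against 18.5 to 23.2 FPKM in normal-diet libraries (-0.11 ± 0.15, adjusted p = 0.7700). Prpf19, the ubiquitin ligase that names the complex to which Isy1 belongs, stood at 20.97 to 29.7 FPKM in high-fat libraries, against 16.7 to 26.4 FPKM in normal-diet libraries (0.19 ± 0.17, adjusted p = 0.6197). The diets overlapped for these 4 genes, and for Prpf18, which acts at exon ligation (0.26 ± 0.15, adjusted p = 0.385). Prpf4, picked out after its values were seen, was without overlap at 6.59 to 7.97 FPKM in high-fat libraries, against 8.001 to 11.1 FPKM in normal-diet libraries (-0.39 ± 0.15, adjusted p = 0.189).

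**Figure D3:**
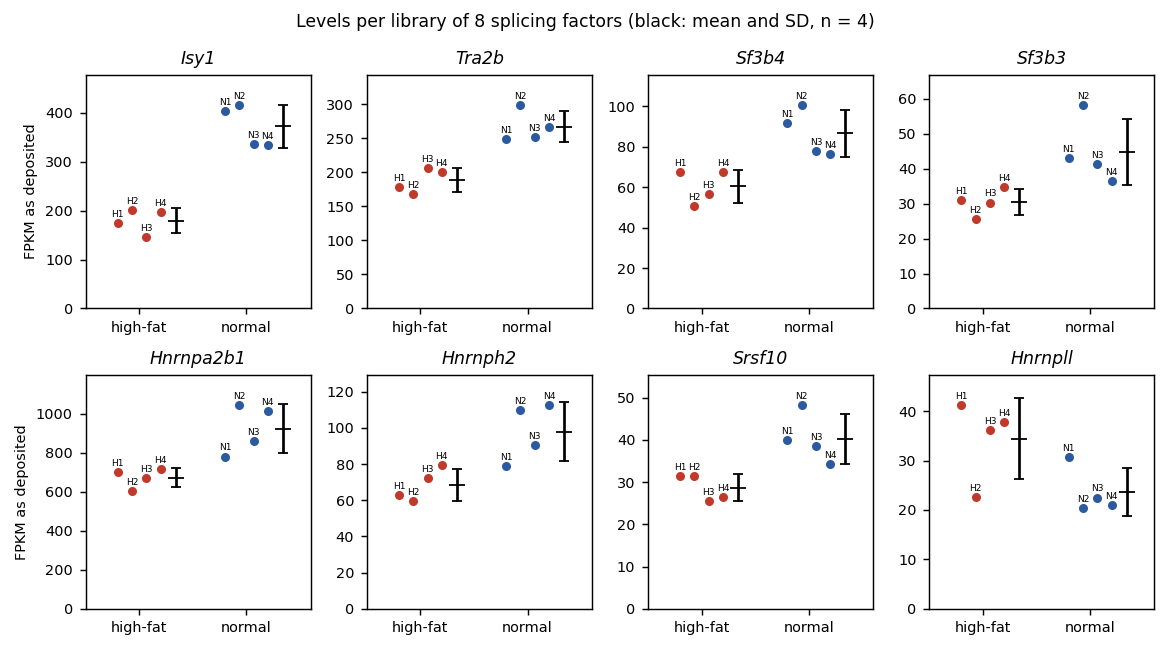
FPKM in each library of 8 splicing factors, high-fat diet left and normal diet right in each panel, with each group's mean and SD (n = 4) in black. Isy1, Tra2b, Sf3b4, Sf3b3, Hnrnpa2b1 and Srsf10 do not overlap between the diets, Hnrnph2 and Hnrnpll do, and H2 holds the lowest Hnrnpll value of the high-fat libraries.

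In 9 members every high-fat library lay below every normal-diet library: Isy1, Tra2b, Srsf10, Hnrnpa2b1, Hnrnpf, Sf3b1, Sf3b3, Sf3b4 and Prpf4. In no member did every high-fat library lie above. That is 15.8% of the tested members, against 6.76% of all tested genes for lower and 4.31% for higher, or 11.1% in either direction. Apart from Isy1, these genes missed the adjusted threshold. Isy1 and Tra2b are among the genes named singly, and the members were chosen with earlier results of these data known. The sum over the 59 genes was 6884 ± 686 FPKM in high-fat libraries and 8057 ± 377 FPKM in normal-diet libraries (SD, n = 4 each), with ranges of 6091 to 7749 FPKM and 7762 to 8552 FPKM that did not overlap. As a share of the summed FPKM of protein-coding genes it was 1.25% ± 0.0321 on the high-fat diet and 1.33% ± 0.0716 on the normal diet, with ranges that met at 1.28% in H1 and 1.27% in N4. No test was made on these sums, which a few abundant genes dominate.

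By family, the SR genes summed to 2813 ± 323 FPKM in high-fat libraries and 3115 ± 294 FPKM in normal-diet libraries, and the ranges overlapped. The hnRNP genes summed to 2570.4 ± 260.1 FPKM in high-fat libraries and 3064 ± 255 FPKM in normal-diet libraries, without overlap between 2864 FPKM in H1 and 2878 FPKM in N1. All family sums carry the deposited scaling, which was not in the same proportion to recovered reads in both diets. Its part in them was not tested, and no share of the coding total was taken by family. Isy1, Tra2a and Tra2b, which are not a family but the genes named singly, summed to 441 ± 21.8 FPKM in high-fat libraries and 715 ± 53.4 FPKM in normal-diet libraries, without overlap. Isy1 had the widest gap, with means of 179 FPKM on the high-fat diet and 372 FPKM on the normal diet. Tra2b averaged 189 and 267 FPKM, and Tra2a 72.5 and 75.9 FPKM, in the same order. The SF3A and SF3B genes (609 ± 78.9 FPKM in high-fat libraries and 668 ± 43.6 FPKM in normal-diet libraries), the U2AF genes (134 ± 19.4 FPKM in high-fat libraries and 159.5 ± 27.7 FPKM in normal-diet libraries) and the Prpf genes (318 ± 32.7 FPKM in high-fat libraries and 335 ± 22.2 FPKM in normal-diet libraries) overlapped between the diets.

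Some libraries stood high or low for many members at once. H2, the library of lowest depth, was the lowest of the high-fat libraries for 37 of the 57 members (64.9%), against 46.7% of all tested genes. It also had the largest deposited divisor, 1.023 of its recovered reads, against 0.863 to 0.931 in H1, H3 and H4. Genes at 1 FPKM or more numbered 13663 in H2, against 11204 to 11905 in H1, H3 and H4. The members' share of recovered reads was 1.40% in H2, against 1.41% to 1.52% in H1, H3 and H4. H1 was the highest for 35 members (61.4%), against 33.9% of all tested genes. The median deviation of the members from their mean over the 8 libraries was 0.14 in H1 and -0.26 in H2 on the log2 scale, against 0.05 and -0.13 for all tested genes. On the normal diet no library was the lowest for more than 16 members. Within a diet the median coefficient of variation of a member was 14.1% on the high-fat diet and 13.4% on the normal diet, against 19.2% and 19.6% over all tested genes. The genes were not matched for level, a median 37.6 FPKM in the members and 9.57 FPKM over all tested genes. The part of level in this spread, and of depth and scaling in the positions of H1 and H2, was not tested.

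**Figure D4:**
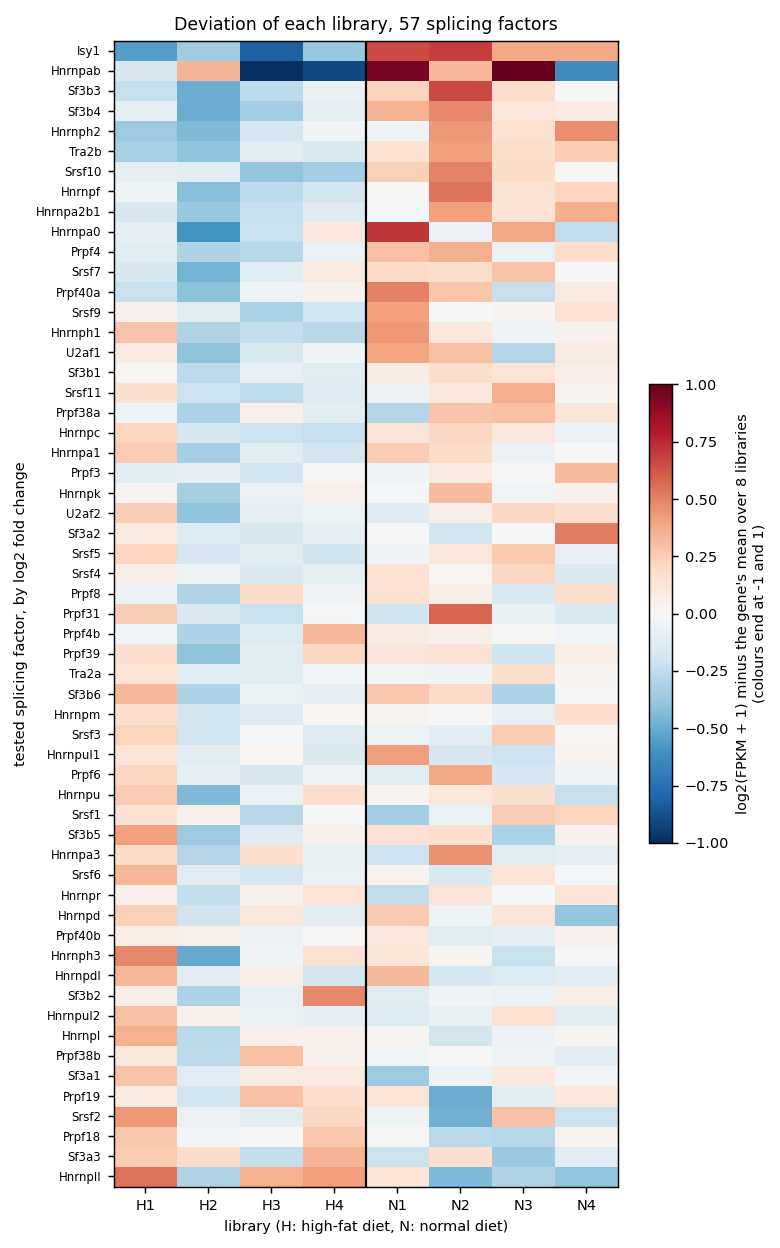
Deviation of log2(FPKM + 1) from the gene's mean over the 8 libraries, as colour (red above, blue below), for the 57 tested members (down the page by log2 difference) in each library, high-fat diet left and normal diet right. H2 is blue for most members (median -0.26), and Isy1 at the top is blue in H1 to H4 and red in N1 to N4.

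The rest of the splicing machinery was taken from 6 lists of 171 genes, 1 of which, Prpf4b, is also among the 59. Of 160 tested genes 1 was called (0.625%), against 2.86% of all tested genes: Tfip11, which helps take the spliceosome apart after splicing. Tfip11 held 59.4, 89.8, 80.9 and 61.99 FPKM in H1 to H4, against 127, 159.6, 104 and 126 FPKM in N1 to N4, without overlap. Its log2 difference was -0.82 ± 0.18 (adjusted p = 0.0202). The call was lost in 7 of 20 alternatives, with adjusted p up to 0.0788, among them leaving out H1, H4, N1 or N2. After quantile normalization the 1 list gene called was Lsm2, of the Lsm rings that bind U6 RNA and decaying mRNA, and it was called higher; with the deposited scaling its difference was 0.41 ± 0.14 (adjusted p = 0.136).

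Tfip11 was in the list of the complex around Prpf19, the catalytic steps and release, of which 25 were tested, 21 of them with a difference below 0 and a median of -0.14. The Sm, Lsm and core small nuclear ribonucleoprotein genes had 0 called of 29 with the deposited scaling, 25 of them below 0, and a median of -0.13. Their most abundant gene was Snrpb (268 to 341 FPKM in high-fat libraries, 326 to 419 FPKM in normal-diet libraries, difference -0.27 ± 0.14, adjusted p = 0.327). The minor spliceosome list had 0 called of 9 and a median of 0.00, with its most abundant gene Zcrb1 (49.00 to 62.8 FPKM in high-fat libraries, 48.9 to 67.2 FPKM in normal-diet libraries, difference -0.037 ± 0.15, adjusted p = 0.935).

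Exon junction proteins and SR-like coactivators had 0 called of 31 and a median of -0.12, with Rbm39 (339 to 392.4 FPKM in high-fat libraries, 385 to 489 FPKM in normal-diet libraries, difference -0.22 ± 0.14, adjusted p = 0.436) the most abundant. Kinases, phosphatases and importins of SR proteins had 0 called of 17 and a median of -0.08, with Ppp1ca (309 to 463 FPKM in high-fat libraries, 332 to 602 FPKM in normal-diet libraries, difference -0.11 ± 0.19, adjusted p = 0.8196) the most abundant. Other regulators of alternative splicing had 0 called of 49 and a median of -0.08, with Ddx5 (2419.8 to 3517 FPKM in high-fat libraries, 2795 to 3368 FPKM in normal-diet libraries, difference -0.086 ± 0.15, adjusted p = 0.824) the most abundant. At an unadjusted p under 0.05, 16 of the 160 genes were lower, against 11.0% of all tested genes, and 5 were higher, against 7.18%.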

How the data were processed

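Per the labels' protocols, Trizol-extracted total RNA was turned into cDNA with the SMART-Seq HT kit and into libraries with TruePrep, which do not mark the strand. HISAT2, Cufflinks and mm10 appear in the submitters' processing notes; not given in the sources used here are versions, annotation and filters. Per the file headers, the 1 deposited table holds FPKM. A value below 0 stood in 14605 genes, so the unit was recorded as other, an untyped score, and these genes were left out. The deposited values also carry a factor of 0.863 to 1.18 that recurs every 10 genes. With it, whole reads were recovered (relative tolerance 1e-06) at the smallest whole-number length that fits, so some genes may hold too many reads. The voom fits and the read totals rest on these reads. Genes that reached 1 FPKM in 4 or more of the 8 libraries were tested as log2(FPKM + 1) with limma 3.58.1 in R 4.3.3 (eBayes trend and robust, diet only, two-sided, Benjamini-Hochberg at 0.05). The members, lists and tests were chosen with earlier results of these data known. Named members are those called, the 2 most abundant of each family, the 5 highest and 5 lowest differences and a panel; of each surrounding list, the called genes or else the most abundant. Of the 59 members, 29 overlap the span of another annotated gene (14 that of a protein-coding one), introns included. Reads cannot be told apart where exons coincide, and overlap of exons was not counted. No 2 libraries of a diet held the same values. Alternatives changed scaling, pseudocount (0.1 or 0.5), filter (none or 5 FPKM), factor, eBayes options, libraries, a replicate block and, on recovered reads, voom.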

Additional observations from a re-analysis of the deposited data

Results flagged for a closer look

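Of 116 groups of 4 libraries examined, 6 held a library whose distance from the others exceeded Dixon's 95% critical value for a group of 4; chance flags about 1 in 20 groups. On the high-fat diet the library was H1 each time, and it was the highest: Hnrnpc stood at 362 FPKM in H1, against 265 to 279.8 FPKM in the other libraries, Srsf6 at 139.9 FPKM, against 98.6 to 105 FPKM, and Hnrnph1 at 121 FPKM, against 80.5 to 83.9 FPKM. On the normal diet N2 was the highest for Prpf31, a protein of the U4/U6 particle, at 45.9 FPKM, against 26.3 to 28.9 FPKM, and for Hnrnpa3 at 143 FPKM, against 89.9 to 97.8 FPKM. Hnrnpdl stood at 98.5 FPKM in N1, against 69.2 to 72.5 FPKM in the other libraries. None of these 6 genes passed the test between the diets.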

How the results depend on the processing

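Over 20 alternatives, 2 of them (the voom fits) added after the data were seen, 670 of 740 combinations of named gene and setting kept direction and side of the threshold, 7 lost a call and 15 gained one. The 328 genes called (112 higher, 216 lower) became 226 higher and 204 lower after quantile normalization, 130 in all with no filter, 571 with the recurring factor divided out, 191 with a replicate block, 1505 (1117 higher, 388 lower) with voom on recovered reads at read totals, and 847 with voom at the deposited divisors. Read totals moved the median of all genes to 0.14 and that of the members to 0.057. Leaving out 1 library gave 129 to 536 genes, with 129 without H3 or H4, 182 without N1, 176 without N2, 200 without H1 and 536 without H2. The 1 member called became 3 at equal library medians (Isy1, Sf3b4 and Tra2b), 2 with the factor out, 2 without replicate 2 of both diets, 7 with voom at read totals (3 higher, 4 lower), 5 with voom at the divisors, and 1 to 2 without 1 library, the second being Hnrnpll without H2. The 1 gene called in the surrounding lists, Tfip11, was replaced by Lsm2, called higher, after quantile normalization; the count became 0 with no filter and 0 with no trend or robust option, 15 (14 higher, 1 lower) at read totals and 5 (1 higher, 4 lower) at the divisors in the voom fits, and 0 to 2 without 1 library. With the replicate block, 1 member and 1 list gene were called. Same-numbered libraries of the diets deviated with correlations of -0.07, -0.25, -0.07 and 0.08. Differently numbered libraries ran from -0.20 (H4 and N1) to 0.22 (H2 and N1). Whether the numbers pair the libraries was not tested. In 48 combinations over 15 genes, none with a main difference beyond 0.22, the log2 difference changed sign. Quantile normalization gave Hnrnpk 0.036, Prpf4b 0.034, Srsf3 0.15, Srsf5 0.091, Srsf6 0.15, Tra2a 0.095, Ddx5 0.064, Ppp1ca 0.055 and Zcrb1 0.10. Equal medians gave Srsf6 0.0059, and the factor out gave Srsf1 0.017 and Srsf6 0.029. Leaving out replicate 2 of both diets gave Hnrnpk 0.0030, Hnrnpu 0.13, Prpf4b 0.030, Ppp1ca 0.17 and Zcrb1 0.050. Voom at read totals gave Hnrnpu 0.059, Prpf4b 0.036, Srsf1 0.17, Srsf3 0.14, Srsf5 0.064, Srsf6 0.19, Tra2a 0.0055, U2af2 0.043, Ddx5 0.020, Rbm39 0.0019 and Zcrb1 0.16, and at the divisors Srsf1 0.014 and Srsf6 0.030. Without 1 library the ranges were -0.0090 to 0.20 for Hnrnpl, -0.13 to 0.099 for Hnrnpu, -0.19 to 0.021 for Prpf4b, -0.072 to 0.19 for Sf3b2, -0.16 to 0.049 for Srsf1, -0.14 to 0.021 for Srsf3, -0.12 to 0.051 for Srsf6, -0.23 to 0.057 for Ppp1ca and -0.11 to 0.045 for Zcrb1. The cause of these changes was not tested, and 4 libraries a diet limit the precision.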

Other observations

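Many splicing factor genes are known to limit their own output by making transcripts that are degraded by nonsense-mediated decay. In GENCODE M21, 32 of the 57 tested members (56.1%) have a transcript annotated as a target of that decay, against 30.4% of 10492 tested coding genes. Among the Srsf genes with Tra2a and Tra2b it was 11 of 12 (91.7%), and among the hnRNP genes 10 of 20 (50%). A transcript with a retained intron was annotated for 75.4% of the members, against 61.6% of the tested coding genes, and the median number of annotated transcripts per gene was 7 against 5. The gene-level values used here do not separate the productive transcript from the others.

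Ratios of FPKM within a library cancel the library's scaling but still carry the factor that recurs along the table. These 6 pairs were chosen after the values were seen, and no test was made. Tra2b over Tra2a was 2.62 ± 0.366 on the high-fat diet and 3.54 ± 0.477 on the normal diet (SD, n = 4 each), with ranges of 2.19 to 3.04 on the high-fat diet, against 3.01 to 4.16 on the normal diet. With that factor divided out, the log2 differences were -0.44 for Tra2b and -0.16 for Tra2a, against -0.50 and -0.067 as deposited, so the paralogs lay closer together. Hnrnpll over Hnrnpl was 0.825 ± 0.101 on the high-fat diet and 0.614 ± 0.103 on the normal diet (SD, n = 4 each), with ranges of 0.6900 to 0.921 on the high-fat diet, against 0.519 to 0.7603 on the normal diet. Both pairs of ranges overlapped, by 1 library of each diet. Srsf7 over Srsf3 (0.581 to 0.884 on the high-fat diet, against 0.753 to 0.925 on the normal diet), Hnrnpa2b1 over Hnrnpa1 (9.56 to 13.3 on the high-fat diet, against 10.6 to 16.4 on the normal diet), Hnrnph2 over Hnrnph1 (0.5198 to 0.969 on the high-fat diet, against 0.584 to 1.098 on the normal diet) and U2af1 over U2af2 (9.81 to 11.4 on the high-fat diet, against 7.71 to 15.97 on the normal diet) overlapped more widely.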
